A study of Mus musculus with 6 samples.

Results

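The wild-type dorsolateral prostate (DLP) was described against the other prostate lobes of the same animal, the anterior prostate (AP) and the ventral prostate (VP). The comparison used 3 of the 6 bulk RNA-seq libraries of the series, 1 per lobe from 1 wild-type (WT) male FVB mouse aged 12 weeks. The other 3 libraries come from the same lobes of 1 littermate that carries the human c-MYC transgene of the Hi-MYC line on 1 allele (MYC), driven in prostatic epithelium by a promoter derived from the probasin gene. Both mice ate the same purified diet after weaning. Each lobe was digested to a cell suspension before RNA was extracted and poly(A)-selected, so every library mixes all cell types that survived the digestion.

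For each gene the lobe ratio was taken as the log2 of FPKM + 1 in WT DLP over the mean of FPKM + 1 in WT AP and WT VP. FPKM are fragment counts divided by transcript length and by the library's mapped reads. Of the 24908 genes of the table, 12018 averaged 1 FPKM or more across the 3 WT libraries and were compared. With 1 library per lobe there is no replicate, so no test was possible and every difference below is a difference between these libraries. A gene was called at 2-fold. The median lobe ratio over all genes compared was 0.10, so that a typical gene was listed slightly higher in DLP, and it was -0.05 when the libraries were scaled by size factors from medians of ratios. The mouse prostate has lobes that open into the urethra by separate ducts, and each lobe secretes its own mixture of proteins into the seminal fluid. Luminal cells make the secretion under the control of androgens, basal cells line the ducts beneath them, and smooth muscle surrounds the glands. The dorsolateral lobe is often set beside the human peripheral zone, where most prostate cancers arise.

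The 3 WT libraries summed to between 374085 and 432828 FPKM. The size of the smallest steps in the low values puts the number of mapped reads between 25.3 M for AP and 50.3 M for VP, so low genes are least precise in AP. A value of 0 in this table need not be an absence of transcript. Rpl26, a ribosomal protein gene that every cell uses, was listed at 0.01 FPKM in WT DLP, 0.66 FPKM in WT VP and 244 FPKM in WT AP. The size of a ratio is therefore uncertain for genes listed at or near 0 in a library. Such genes were not removed from the counts below.

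WT DLP was the least distinct of the lobes. It was at least 2-fold above both other lobes in 91 genes (0.757% of those compared) and at least 2-fold below both in 10 (0.0832%). By the same rule AP stood above both other lobes in 145 genes (1.21%) and below both in 303 (2.52%), and VP stood above both in 294 (2.45%) and below both in 579 (4.82%). Against AP alone, DLP was at least 2-fold higher in 488 genes (4.06%) and at least 2-fold lower in 160 (1.33%). Against VP alone it was higher in 783 genes (6.52%) and lower in 321 (2.67%). AP and VP were further apart from each other, with 1253 genes at least 2-fold higher in AP (10.4%) and 974 at least 2-fold higher in VP (8.10%). In the paper's clustering, bulk and matched single-cell profiles correlated strongly except for AP, and AP enters most of these counts.

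**Figure D1:**
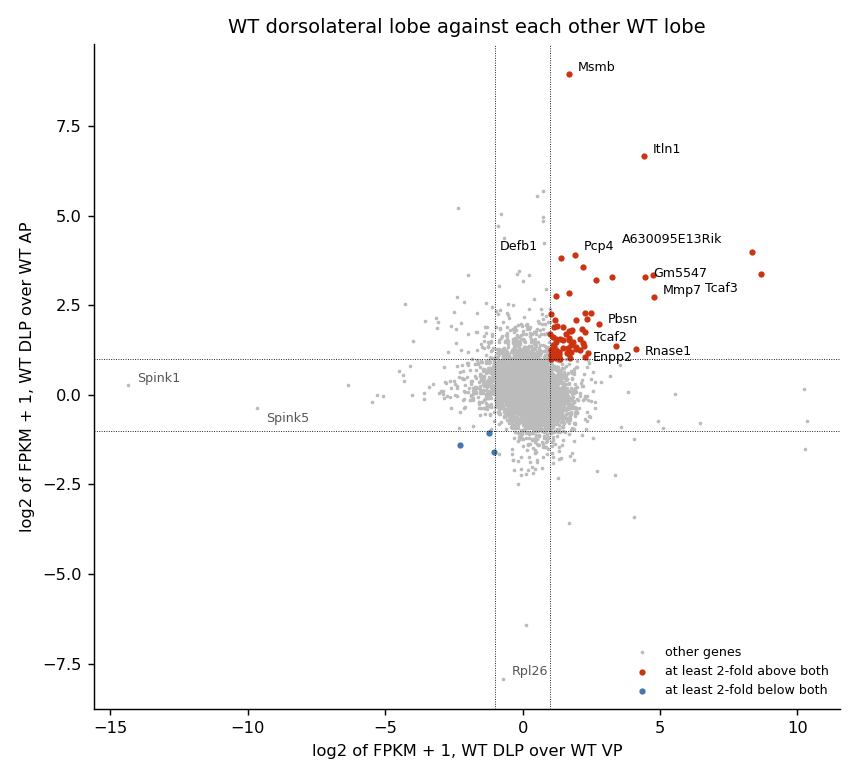
Each point is 1 of the genes compared, without small RNA genes. The x axis is the log2 ratio of FPKM + 1 in WT DLP over WT VP, the y axis the same over WT AP, and dotted lines mark 2-fold. Of the coloured genes, 73 lie in the upper right corner, above both lobes, and 3 in the lower left corner. Rpl26, near 0 in WT DLP and WT VP, lies at the bottom.

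By the lobe ratio itself, 176 genes were at least 2-fold higher in DLP (1.46%) and 169 at least 2-fold lower (1.41%). After scaling by size factors the split was 127 higher and 216 lower. The groups differed in kind. All 176 higher genes had their highest level in DLP, because a ratio to a mean cannot pass 2-fold unless DLP exceeds the higher lobe. Of the 169 lower genes, DLP was the lowest lobe in 54, tied with the lower lobe in 21 and lay between the other lobes in 94. Ratios nearest the threshold were 1.0004 inside and 0.9991 outside on the high side, and -1.001 inside and -0.98 outside on the low side.

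The 91 genes above both lobes include 18 small RNA genes. Of these 18, 14 were listed at 0 in both AP and VP and 8 were also listed at 0 in MYC DLP. Poly(A)-selected libraries capture such short transcripts poorly and they are left aside below. Among the 73 others, the median level in DLP was 9.56 FPKM, the range was 2.82 to 14037 FPKM, and 12 genes were at least 4-fold above the next lobe. The next lobe was AP for 40 of them and VP for 33. With size factors 54 of the 73 were still 2-fold above both lobes, and with equal FPKM sums 55. An average of 10 FPKM or more across the WT libraries left 23 of the 73, and the 12 with the highest lobe ratios are described first.

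The secreted proteins of the dorsolateral lobe led the most abundant genes. Pbsn encodes probasin, a lipocalin secreted by the rodent prostate and a standard androgen-responsive gene (chrX:77837898-77853500). Its level was 14037 FPKM in DLP, 3597 FPKM in AP and 2055 FPKM in VP, a lobe ratio of 2.31. Msmb encodes beta-microseminoprotein, a small cysteine-rich protein of the seminal plasma. It was listed at 8601 FPKM in DLP, 2664 FPKM in VP and 16.4 FPKM in AP, a lobe ratio of 2.68. Pbsn was thus abundant in every lobe and highest in DLP, whereas Msmb was abundant in DLP and VP and low in AP.

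Itln1 had the highest lobe ratio of the named genes, 5.14. It encodes intelectin 1, a secreted lectin that binds glycans of microbial surfaces. Its level was 647 FPKM in DLP, 29.3 FPKM in VP and 5.45 FPKM in AP. A630095E13Rik, a gene that RefSeq lists among the PATE family of small secreted proteins, followed with 392 FPKM in DLP, 24.0 FPKM in AP and 0.20 FPKM in VP (lobe ratio 4.91). The lowest lobe differed, AP for Itln1 and VP for A630095E13Rik.

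Tcaf3 and Tcaf2, neighbouring genes on chromosome 6 that encode relatives of a TRPM8 channel-associated factor, were both above both lobes. Tcaf3 stood at 414 FPKM in DLP, 39.3 FPKM in AP and 0.01 FPKM in VP (lobe ratio 4.33). Tcaf2 was an order lower, with 48.3 FPKM in DLP, 13.7 FPKM in AP and 9.19 FPKM in VP (lobe ratio 1.98). The third gene of that name, Tcaf1, was also highest in DLP but did not pass 2-fold, at 16.3 FPKM in DLP, 12.7 FPKM in AP and 10.5 FPKM in VP. Reads could be shared between these relatives, which the table does not show.

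Mmp7 encodes matrilysin, a matrix metalloprotease that glandular epithelia secrete and that activates alpha-defensins in the gut. It was listed at 414 FPKM in DLP, 62.1 FPKM in AP and 14.1 FPKM in VP (lobe ratio 3.41). Defb1, a beta-defensin, reached 1500 FPKM in DLP against 572 FPKM in VP and 105 FPKM in AP (lobe ratio 2.14). Rnase1, the pancreatic-type secreted ribonuclease, reached 471 FPKM in DLP against 194 FPKM in AP and 26.0 FPKM in VP (lobe ratio 2.09). The second lobe therefore differed between these genes, AP for Mmp7 and Rnase1 and VP for Defb1.

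The remaining named genes had varied roles. Pcp4, a small modulator of calmodulin, was at 339 FPKM in DLP, 90.3 FPKM in VP and 21.8 FPKM in AP (lobe ratio 2.57). Enpp2 encodes autotaxin, the secreted enzyme that makes lysophosphatidic acid, and was at 31.2 FPKM in DLP, 11.6 FPKM in AP and 5.93 FPKM in VP (lobe ratio 1.72). Gm5547, a gene without a described protein, was at 58.7 FPKM in DLP, 5.12 FPKM in AP and 1.75 FPKM in VP (lobe ratio 3.75). In all 12 genes the DLP value was the highest of the 3 WT values, as the rule required.

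**Figure D2:**
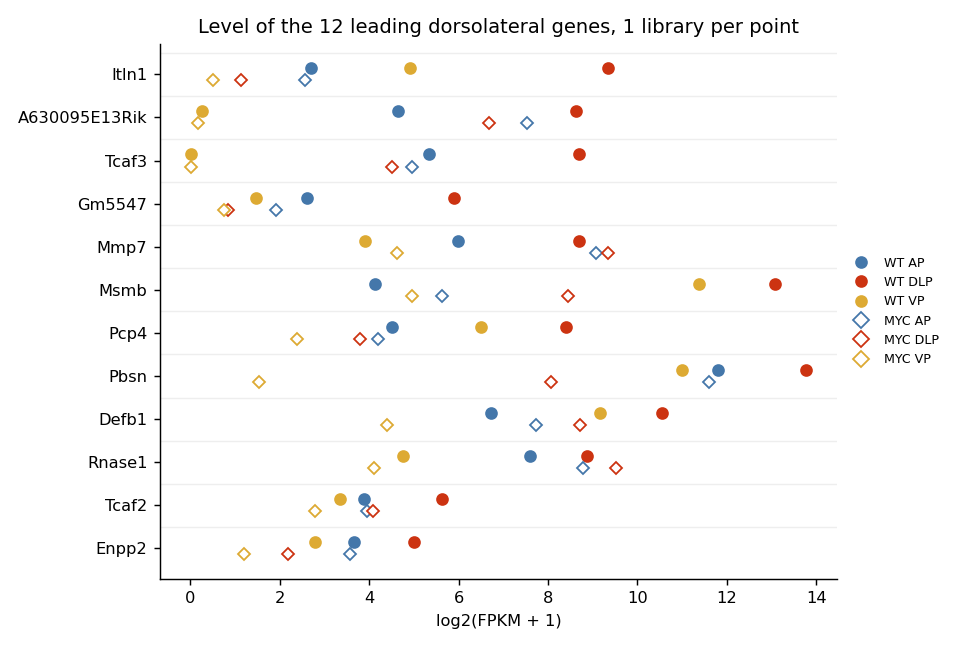
Level of the 12 leading DLP genes in all 6 libraries, as log2(FPKM + 1), with filled circles for the WT mouse and open diamonds for the MYC mouse. Colours mark the lobe, and each point is 1 library. The filled red circle of WT DLP lies furthest right among the filled circles in every row, while the open red diamond of MYC DLP is the highest diamond in 5 of the 12 rows.

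Promoters are shown for 4 of these genes, because probasin is the textbook androgen-driven gene of the prostate and the other 3 have the largest lobe ratios among named protein-coding genes with a promoter in the RefSeq table. Each runs from 250 bases before to 50 bases after an annotated start on GRCm38.p6, the build (mm10) of the submitters' notes, 5′ to 3′ on the gene's strand. Capitals mark AGAACA, a half-site of androgen response elements, on either strand. TGTTTA, a core that forkhead factors such as FOXA1 bind, was searched likewise and matched none of these 4.
Pbsn: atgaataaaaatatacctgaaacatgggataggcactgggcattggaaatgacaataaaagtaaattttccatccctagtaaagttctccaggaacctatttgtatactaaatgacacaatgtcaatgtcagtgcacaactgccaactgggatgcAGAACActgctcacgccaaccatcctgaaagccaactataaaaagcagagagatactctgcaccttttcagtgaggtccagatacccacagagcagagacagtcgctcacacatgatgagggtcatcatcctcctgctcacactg
Itln1: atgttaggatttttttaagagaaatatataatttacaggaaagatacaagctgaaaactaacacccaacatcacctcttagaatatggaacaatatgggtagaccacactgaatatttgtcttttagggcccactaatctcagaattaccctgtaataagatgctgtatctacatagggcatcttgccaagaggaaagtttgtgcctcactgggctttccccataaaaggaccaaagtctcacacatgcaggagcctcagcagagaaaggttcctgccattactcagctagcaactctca
Tcaf3: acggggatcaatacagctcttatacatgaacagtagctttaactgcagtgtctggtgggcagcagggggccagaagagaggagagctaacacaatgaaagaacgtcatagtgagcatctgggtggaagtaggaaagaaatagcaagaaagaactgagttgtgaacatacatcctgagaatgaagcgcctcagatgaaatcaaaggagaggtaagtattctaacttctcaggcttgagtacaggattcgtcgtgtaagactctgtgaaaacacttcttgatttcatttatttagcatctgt
Mmp7: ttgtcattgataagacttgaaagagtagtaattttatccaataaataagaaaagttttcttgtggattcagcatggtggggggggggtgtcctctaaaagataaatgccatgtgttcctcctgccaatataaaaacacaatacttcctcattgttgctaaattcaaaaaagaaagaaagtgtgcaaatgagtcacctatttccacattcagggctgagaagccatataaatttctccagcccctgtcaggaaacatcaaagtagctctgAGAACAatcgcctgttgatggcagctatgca
The Pbsn stretch lies at chrX:77853451-77853750 (minus strand), that of Itln1 at chr1:171535245-171535544 (minus), that of Tcaf3 at chr6:42597323-42597622 (minus) and that of Mmp7 at chr9:7691840-7692139 (plus). AGAACA was present in 19.0% of the 32851 promoters of that length in the table and TGTTTA in 13.4%. Of the 12 named genes, 8 have a promoter there, with 9 promoters in all. AGAACA was found in 3 of the 9, namely Pbsn and both overlapping starts of Mmp7, and TGTTTA in 0. Over the 73 genes, 49 had a promoter, and 9 of 63 promoters (14.3%) held AGAACA and 5 (7.94%) held TGTTTA. A match describes the letters only.

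Further genes above both lobes were grouped by role after their values had been seen. The first group holds enzymes of steroids, prostaglandins, retinoic acid and heme, and a nuclear receptor coactivator. Srd5a2, the steroid 5-alpha-reductase that makes dihydrotestosterone, was at 24.1 FPKM in DLP, 11.5 FPKM in AP and 11.4 FPKM in VP, only just past 2-fold (lobe ratio 1.01). Ncoa4, a coactivator of nuclear receptors that also delivers ferritin to lysosomes, was at 209 FPKM in DLP, 101 FPKM in VP and 42.7 FPKM in AP (1.53). Hmox1, the heme oxygenase that frees iron from heme, was at 141 FPKM in DLP, 68.1 FPKM in VP and 58.8 FPKM in AP (1.13). Hpgd, which degrades prostaglandins, was at 55.9 FPKM in DLP, 19.7 FPKM in VP and 18.8 FPKM in AP (1.49). Aldh1a2, a retinoic acid-making enzyme, was at 11.6 FPKM in DLP, 4.10 FPKM in AP and 2.97 FPKM in VP (1.47). Srd5a2, Ncoa4 and Hmox1 were no longer 2-fold above both lobes with size factors, at log2 ratios over VP of 0.82, 0.83 and 0.82, nor with equal FPKM sums.

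Several neuropeptide genes, at low levels, were above both lobes as well. Gal (galanin) was at 15.7 FPKM in DLP, 3.70 FPKM in AP and 2.73 FPKM in VP, and Npy (neuropeptide Y) at 10.8 FPKM in DLP against 0.22 FPKM in AP and 0.23 FPKM in VP. Sst (somatostatin) was at 4.05 FPKM in DLP, 1.10 FPKM in AP and 0.31 FPKM in VP. Uchl1, a ubiquitin hydrolase of neurons and neuroendocrine cells, was at 9.39 FPKM in DLP, 3.99 FPKM in AP and 3.98 FPKM in VP. Of the 12 neuropeptide and granule genes examined, 6 passed the filter, and these 4 were the ones highest in DLP, as 35.7% of all genes were. All 4 were above both lobes (background 0.757%), but with size factors Uchl1 was not, at log2 ratios of 0.94 over AP and 0.88 over VP. The group was put together with these values known, so nothing is read from its counts. Tac1, the gene of substance P, went the other way with 24.6 FPKM in VP, 1.66 FPKM in DLP and 1.15 FPKM in AP. No member of the 6-gene neuroendocrine list passed the filter. Its best-known member, Chga (chromogranin A), was at 2.35 FPKM in DLP, 0.35 FPKM in VP and 0.05 FPKM in AP, and the list summed to 5.14 FPKM in DLP, 1.84 FPKM in AP and 1.07 FPKM in VP. The part of neuroendocrine cells in the neuropeptide values was not tested.

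Signalling and patterning genes above both lobes were also low. Sp5, a transcription factor induced by WNT signals, was at 17.3 FPKM in DLP, 4.69 FPKM in VP and 1.57 FPKM in AP (lobe ratio 2.14). Sfrp4, a secreted WNT inhibitor, was at 7.83 FPKM in DLP, 2.87 FPKM in AP and 1.61 FPKM in VP (1.45), and Ihh (Indian hedgehog) at 3.75 FPKM, 1.09 FPKM and 0.88 FPKM in the same order (1.26). Il11, a cytokine, was at 9.13 FPKM in DLP, 1.36 FPKM in AP and 1.01 FPKM in VP (2.21). Tnc (tenascin C), an extracellular matrix protein, was at 9.49 FPKM in DLP, 2.27 FPKM in VP and 2.08 FPKM in AP (1.73). An estimated 51 reads in DLP lay behind the weakest of the 73 genes, and 6 of them had fewer than 100 reads.

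The beta-defensin and ribonuclease A families were chosen after the values were seen, and most of their genes did not pass the filter. All 4 beta-defensin genes that passed the filter, of 43 in the table, had a lobe ratio of at least 1 (background 1.46%), although only Defb1 was 2-fold above both lobes (background 0.757%). Defb50 was the most abundant transcript of them, at 18600 FPKM in DLP, 11123 FPKM in VP and 361 FPKM in AP (lobe ratio 1.70). Defb2 was at 10.5 FPKM in DLP, 6.13 FPKM in VP and 1.17 FPKM in AP, and Defb10 at 9.13 FPKM in DLP and 7.71 FPKM in VP and listed at 0 in AP. In the ribonuclease A family 8 of 22 genes passed the filter, and 6 of the 8 were highest in DLP with a ratio of at least 1 (background 1.46%). Since both families were picked for these values, nothing is read from the counts. Ang3 was at 52.8 FPKM in DLP, 36.8 FPKM in VP and 0.16 FPKM in AP, and Ang4 at 30.0 FPKM in DLP, 17.8 FPKM in VP and 0.08 FPKM in AP. The angiogenin and eosinophil-associated ribonuclease genes are close copies of one another, so the division of reads between them is uncertain. The other members, Ang and Rnase4, were highest in AP, at 10.4 FPKM in DLP, 13.8 FPKM in AP and 0.85 FPKM in VP for Ang and 63.0 FPKM in DLP, 76.7 FPKM in AP and 21.6 FPKM in VP for Rnase4.

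Of the 176 genes past 2-fold by the ratio, 85 were not 2-fold above both lobes. The nearer lobe was VP for 46 of them and AP for 39. Apof, which encodes an apolipoprotein, was shared with VP at 61.0 FPKM in DLP, 35.3 FPKM in VP and 2.29 FPKM in AP. Genes shared with AP include Crip1, a LIM-domain protein, with 201 FPKM in DLP, 156 FPKM in AP and 31.3 FPKM in VP, and Thbd (thrombomodulin) with 54.6 FPKM in DLP, 41.0 FPKM in AP and 11.4 FPKM in VP. Selp and Sele, adhesion molecules of activated endothelium, and Ackr1, a chemokine receptor of venules, were all highest in DLP. Selp was at 85.9 FPKM in DLP, 40.9 FPKM in AP and 16.9 FPKM in VP, Sele at 25.1 FPKM, 13.0 FPKM and 3.87 FPKM, and Ackr1 at 31.7 FPKM, 18.2 FPKM and 5.37 FPKM in the same order. Of these 3, Selp alone was 2-fold above both lobes, and with size factors it was not. The general endothelial markers were between the other lobes instead, as given below.

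Between the other lobes was the most frequent place of DLP. Over all 12018 genes, DLP was strictly between in 6559 (54.6%), AP in 2917 (24.3%) and VP in 2506 (20.9%). DLP was the highest lobe in 35.7% of genes and the lowest in 9.57%, the latter against 43.5% for AP and 46.6% for VP. With size factors DLP was highest in 17.5%, lowest in 22.8% and strictly between in 59.6%. Where AP and VP were at least 2-fold apart (2227 genes), DLP lay strictly between them in 1906 (85.6%). The corresponding share was 33.2% for AP, where DLP and VP were 2-fold apart (1104 genes), and 38.4% for VP, where AP and DLP were 2-fold apart (648 genes). The 3 values of a gene are linked in these shares, since the same libraries enter each.

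Position was measured on the log2(FPKM + 1) line from the VP value (0) to the AP value (1). Of the 2227 genes, 1240 (10.3% of all compared) were midway, between 0.25 and 0.75, while 504 lay nearer AP and 174 nearer VP. A further 188 lay beyond AP and 121 beyond VP. For the 1253 genes higher in AP the median position was 0.69, and for the 974 genes higher in VP it was 0.48. On the AP-high side DLP was near AP in 348 genes and near VP in 42, and on the VP-high side it was near AP in 156 and near VP in 132. That unevenness depended on the scaling, since with size factors the medians were 0.59 and 0.58. Of the 1036 genes averaging 10 FPKM or more, DLP lay strictly between in 886 (85.5%).

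**Figure D3:**
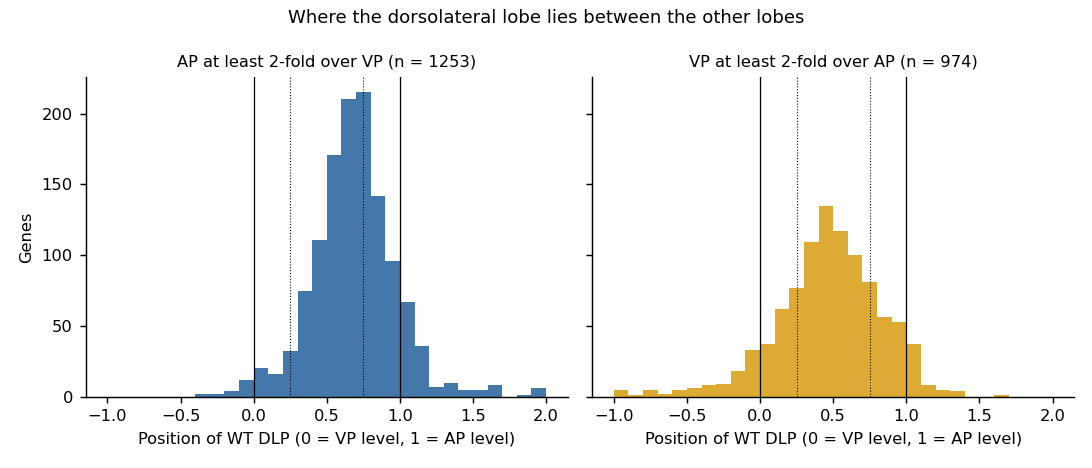
Histogram of the position of WT DLP between VP (0) and AP (1) on the log2(FPKM + 1) scale, for genes at least 2-fold higher in AP (left, n = 1253) and at least 2-fold higher in VP (right, n = 974). Solid lines mark the VP and AP levels, dotted lines the midway range of 0.25 to 0.75, and genes past the ends of the axis are counted in the outermost bars. As deposited the medians are 0.69 and 0.48, and with size factors 0.59 and 0.58.

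Among midway genes that are highest in VP, Abo was at 232 FPKM in VP, 44.5 FPKM in DLP and 0.22 FPKM in AP. It encodes the blood group glycosyltransferase. Pigr, the receptor that carries immunoglobulin A across epithelia, was at 349 FPKM in VP, 17.2 FPKM in DLP and 2.17 FPKM in AP. Cyp2b10, a cytochrome P450 that oxidises drugs and steroids, was at 231 FPKM in VP, 13.7 FPKM in DLP and 4.21 FPKM in AP, and Atp2c2, a calcium and manganese pump of the secretory pathway, at 69.0 FPKM, 4.97 FPKM and 0.44 FPKM in the same order. In each of the 4 the DLP level exceeded AP and was far under VP. 9530002B09Rik from the secretion list had the same order, with 6649 FPKM in VP, 1249 FPKM in DLP and 349 FPKM in AP (position 0.57).

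Among midway genes highest in AP, C1rb was at 369 FPKM in AP, 78.2 FPKM in DLP and 6.70 FPKM in VP, and C1s2 at 217 FPKM, 17.1 FPKM and 4.66 FPKM. Both encode relatives of the complement proteases C1r and C1s. Ivl (involucrin), a precursor of the cornified envelope of stratified epithelium, was at 78.2 FPKM in AP, 17.2 FPKM in DLP and 1.77 FPKM in VP. Glb1l3, a beta-galactosidase-like gene, was at 177 FPKM in AP and 15.8 FPKM in DLP and listed at 0 in VP. These levels form a step from AP through DLP to VP, and the lobe ratio of all 4 was below -1 because the mean of the other lobes follows the higher one.

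Few genes were low in DLP alone. Of the 10 genes 2-fold below both lobes, 7 were small RNA genes, 5 of them listed at 0 in DLP. The other 3 had a mean of under 10 FPKM, so none met the rule for naming and they are named here after their values were seen. Ncoa7, a protein of the oxidative stress response, was at 3.21 FPKM in DLP, 7.72 FPKM in VP and 11.7 FPKM in AP. Aldh1l2, a mitochondrial folate enzyme, was at 0.81 FPKM in DLP, 3.25 FPKM in VP and 2.79 FPKM in AP, and BC030870, an uncharacterised transcript, at 0.31 FPKM, 5.36 FPKM and 2.44 FPKM. Of the 143 genes without small RNAs that had a lobe ratio of at most -1, VP was the highest lobe in 113 and AP in 30, and DLP was strictly between in 94. The largest such ratio was that of Spink1, a trypsin inhibitor, at 25232 FPKM in VP, 0.20 FPKM in DLP and listed at 0 in AP. Nupr1, a stress-induced chromatin protein, was at 2985 FPKM in VP, 173 FPKM in DLP and 98.0 FPKM in AP.

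Gene lists showed the same mixture. In the prostate secretion list 18 of 24 genes were compared, of which 7 had a ratio of at least 1 (background 1.46%), 5 of them above both lobes (background 0.757%), and 3 a ratio of at most -1 (background 1.41%). The median was 0.38 against 0.10 over all genes, 0.19 with size factors and 1.05 with the geometric mean of AP and VP. The list was written with these lobes in view and holds genes named above. Tgm4, the transglutaminase that clots semen, was shared by AP and DLP, at 3016 FPKM in AP, 1804 FPKM in DLP and 0.40 FPKM in VP. Azgp1, a lipid-mobilising secreted protein, was shared by VP and DLP, at 82.8 FPKM in VP, 44.8 FPKM in DLP and 4.63 FPKM in AP. Sbp, spermine-binding protein, was listed at 3.58 FPKM in DLP, 0.68 FPKM in AP and 0 in VP.

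Of the 15 luminal transcription factors none passed 2-fold, where 1.46% of all genes were called higher and 1.41% lower, and the median was -0.18. Foxa1, a forkhead factor that opens chromatin, was at 141 FPKM in DLP, 149 FPKM in VP and 165 FPKM in AP. Hoxb13, the most caudal homeobox gene of its cluster, was at 107 FPKM in DLP, 174 FPKM in VP and 44.4 FPKM in AP. DLP was strictly between in 10 of the 15, against 54.6% of all genes. Posterior Hox genes, 10 compared, had none called and a median of -0.11 (0.19 with the geometric mean). Those of the D cluster were lower in DLP than in AP, with Hoxd13 at 17.5 FPKM in DLP, 33.6 FPKM in AP and 7.54 FPKM in VP. Hoxa10 was highest in DLP, at 16.9 FPKM, against 11.1 FPKM in VP and 8.70 FPKM in AP.

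In the metabolic and secretory lists few genes were called, as among all genes (1.46% higher, 1.41% lower). None of the 34 genes of endoplasmic reticulum folding and export (median 0.14, -0.05 with size factors), none of the 21 zinc genes (median 0.02, -0.11 with size factors), none of the 25 citrate cycle genes (median 0.20, 0.02 with size factors) and none of the 17 glutathione genes (median 0.28, 0.10 with size factors) passed 2-fold. The zinc transporter Slc30a2 came closest, at 18.5 FPKM in DLP, 17.4 FPKM in AP and 0.35 FPKM in VP (lobe ratio 0.99). The zinc-binding metallothionein Mt1 stepped down from 4662 FPKM in AP to 2637 FPKM in DLP and 1508 FPKM in VP. Of 12 polyamine genes 1 was called, Amd1, which was at 15.7 FPKM in VP and at most 0.03 FPKM in DLP and AP while its near-copy Amd2 was at 166 FPKM in DLP, 156 FPKM in VP and 137 FPKM in AP. Of 18 complement and defence genes 1 was called, the macrophage lysozyme gene Lyz2, with 11.8 FPKM in DLP, 46.0 FPKM in AP and 7.82 FPKM in VP. DLP was strictly between in 15 of the 18, against 54.6% of all genes. Of these 15, 12 had AP and VP at least 2-fold apart, and 85.6% of all such genes had DLP between. Of 25 WNT, FGF, BMP and hedgehog genes, Sfrp4, Ihh and Dkk2 were called higher (background 1.46%) and Wnt10a lower (background 1.41%), with a median of 0.25 (0.12 with size factors). Dkk2, a WNT inhibitor, was at 5.49 FPKM in DLP, 2.38 FPKM in AP and 0.66 FPKM in VP.

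Marker genes of the cells in each suspension differed between the lobes too. Luminal keratin Krt8 was at 446 FPKM in DLP and 400 FPKM in AP but 1292 FPKM in VP, and Krt18 at 526 FPKM in DLP, 549 FPKM in AP and 1611 FPKM in VP. The 8 luminal markers summed to 4136 FPKM in DLP, 5402 FPKM in AP and 7191 FPKM in VP, with Krt18 and Cldn3 called lower (background 1.41%) and a median ratio of -0.43. DLP lay between the other lobes in 6 of the 8, against 54.6% of all genes, and was lowest in 2, against 9.57%. Krt8 was called too with size factors, at -1.12, while Krt18 was not with the geometric mean of AP and VP (-0.84) and was at -0.06 against AP alone. Basal keratin Krt5 was at 115 FPKM in DLP, 109 FPKM in AP and 33.0 FPKM in VP, and Krt14 at 378 FPKM in DLP, 760 FPKM in AP and 158 FPKM in VP. Basal markers summed to 1597 FPKM in DLP, 2354 FPKM in AP and 748 FPKM in VP, and none of 8 was called. In a bulk sample, fewer cells of a type and less RNA per cell cannot be told apart. Single-cell RNA-seq in the paper had basal cells as the main epithelial type in AP and DLP and luminal cells in VP. The part of these cell numbers in the marker values was not tested.

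Markers of progenitor-like and proximal duct cells summed to 724 FPKM in DLP, 571 FPKM in AP and 481 FPKM in VP. Ly6d, a surface protein of castration-resistant luminal progenitors, was the only one of 9 called higher (background 1.46%), at 33.7 FPKM in DLP, 13.5 FPKM in AP and 7.23 FPKM in VP. Psca, a surface antigen of the same compartment, was at 168 FPKM in DLP, 97.6 FPKM in AP and 92.1 FPKM in VP. Krt4 was at 20.3 FPKM in DLP, 10.2 FPKM in AP and 53.3 FPKM in VP, Ly6a (Sca-1) at 161 FPKM, 172 FPKM and 47.4 FPKM, Cd44 at 49.6 FPKM, 37.3 FPKM and 20.9 FPKM, and Cldn10 at 36.2 FPKM, 8.13 FPKM and 60.4 FPKM, each for DLP, AP and VP. These markers did not share 1 order of the lobes.

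Of the stromal and blood lists, smooth muscle was highest in DLP, with 612 FPKM against 505 FPKM in VP and 391 FPKM in AP, and 8 of its 10 genes were highest there, against 35.7% of all genes. With size factors 6 of the 10 were, against 17.5% of all genes. Only Actg2 of the 10 was called higher (background 1.46%), with a lobe ratio of 1.08, or 0.91 with size factors. It was at 27.0 FPKM in DLP, 13.2 FPKM in VP and 11.3 FPKM in AP. Fibroblast markers summed to 1903 FPKM in DLP, 1675 FPKM in AP and 1344 FPKM in VP. Only 5 of the 12 were highest in DLP, with a median log2 ratio over AP of -0.09, and 7 lay between, against 54.6% of all genes. Pdgfra was at 26.6 FPKM, 23.5 FPKM and 14.8 FPKM. Endothelial markers summed to 182 FPKM in DLP, 255 FPKM in AP and 40.5 FPKM in VP, and all 12 lay between AP and VP in DLP. In all 12 AP and VP were at least 2-fold apart, and 85.6% of all such genes had DLP between. Pecam1 was at 37.4 FPKM, 56.5 FPKM and 6.25 FPKM. Hematopoietic markers summed to 449 FPKM in DLP, 911 FPKM in AP and 219 FPKM in VP. DLP lay between in 12 of 13, against 54.6% of all genes, and 9 of these had AP and VP 2-fold apart. Ptprc (CD45) was at 3.18 FPKM in DLP, 4.59 FPKM in AP and 1.91 FPKM in VP. Fabp4 was the only adipocyte marker compared, at 64.0 FPKM, 48.0 FPKM and 27.2 FPKM in the same order, while Adipoq and Plin1 were listed at 0 in all WT libraries. Hba-a1, a haemoglobin gene of red cells, was at 486 FPKM in DLP, 340 FPKM in AP and 53.1 FPKM in VP. Another haemoglobin gene, Hba-a2, was among the 73 genes above both lobes (lobe ratio 2.04, 1.93 with size factors).

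**Figure D4:**
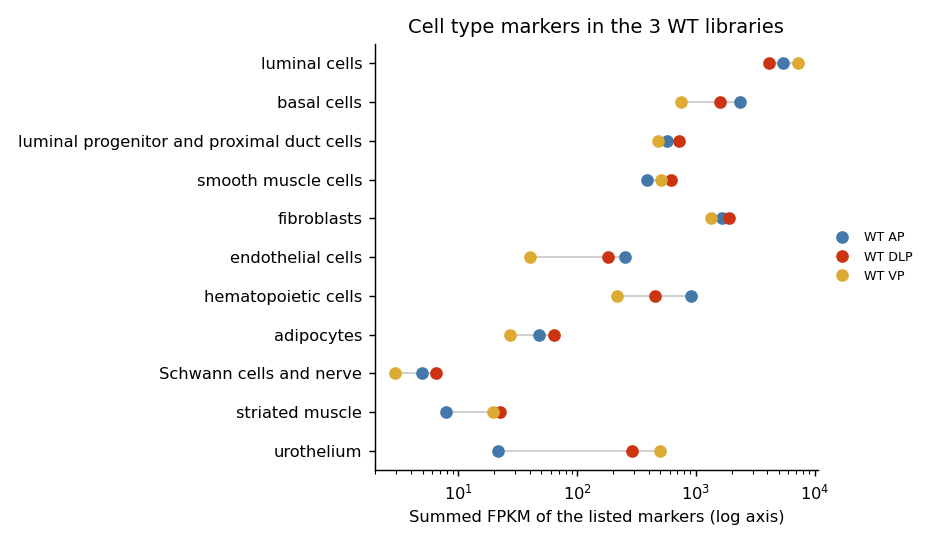
Summed FPKM of the markers of each cell type in the 3 WT libraries, on a log axis, with 1 point per library. DLP lies between AP and VP for the basal, endothelial and hematopoietic lists, for example 182 FPKM against 255 and 40.5 FPKM for the endothelial list. By the sums it lies at the high end for the smooth muscle and fibroblast lists and at the low end for the luminal list. However, 7 of 12 fibroblast genes and 6 of 8 luminal genes had DLP between the other lobes, against 54.6% of all genes.

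Markers of neighbouring organs were low in WT DLP, apart from the urothelial genes Upk1a and Upk1b. Of 8 seminal vesicle genes in the table none passed the filter, and they summed to 0.19 FPKM in DLP, 0.11 FPKM in AP and 0.02 FPKM in VP. Striated muscle genes summed to 22.3 FPKM in DLP, 19.7 FPKM in VP and 7.89 FPKM in AP, and Schwann cell genes to 6.48 FPKM, 2.92 FPKM and 4.95 FPKM. The urothelial list summed to 289 FPKM in DLP, 502 FPKM in VP and 21.5 FPKM in AP, most of it in DLP and VP from Upk1a (268 FPKM in DLP), while the defining Upk3a was listed at 0 in DLP and Upk2 was at 1.14 FPKM. Upk1b was the called member, at 19.9 FPKM in DLP, 9.96 FPKM in AP and 7.08 FPKM in VP. Immediate early genes were abundant in all WT libraries, with Fos at 1098 FPKM in DLP, 994 FPKM in AP and 1240 FPKM in VP. Of 25 immediate early and heat shock genes none was called higher in DLP, and Egr3, Atf3 and Btg2 were called lower (background 1.46% and 1.41%, median -0.19, -0.37 with size factors). Egr3 was at 12.2 FPKM in DLP, 40.7 FPKM in AP and 23.0 FPKM in VP. Among 82 ribosomal protein genes the median was 0.26 (0.09 with size factors) and only Rpl26 was called. As deposited, 68 of the 82 were highest in DLP, against 35.7% of all genes. Among 6 proliferation genes Rrm2 alone was called, lower, with 2.98 FPKM in DLP, 15.7 FPKM in AP and 1.88 FPKM in VP. The part of cell composition, blood and the digestion in the lobe ratios was not tested.

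The littermate with the MYC transgene gave a second set of 3 lobes that shares no library with the WT ratio. It is not a replicate, since genotype and animal cannot be told apart. Its AP library held seminal vesicle transcripts, 524 FPKM over the list against 11.3 FPKM in MYC DLP, with all its genes listed at 0 in MYC VP. Its DLP library had 1717 FPKM of hematopoietic markers against 449 FPKM in WT DLP. Of the 91 genes above both lobes in WT, 17 were also 2-fold above both in MYC DLP (18.7%), where 1.59% of all genes were. Without small RNA genes the count was 10 of 73 (13.7%). MYC DLP was the highest MYC lobe for 38 of the 73 (52.1%), against 27.1% of all genes. None of the 73 was 2-fold below both MYC lobes, a call that 0.125% of all genes had.

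Msmb and Defb1 were 2-fold above both lobes in the MYC mouse too, at lower levels. Msmb was at 346 FPKM in MYC DLP, 48.7 FPKM in MYC AP and 30.0 FPKM in MYC VP, and Defb1 at 421 FPKM, 210 FPKM and 20.1 FPKM. Defb1 only just passed over MYC AP and did not with size factors (log2 0.95) or equal sums (0.76), nor did Epyc (0.97 and 0.84). Scaling took the 17 genes to 13 with size factors and 14 with equal sums. Sbp showed the largest excess of the 73 genes there, at 878 FPKM in MYC DLP, 32.6 FPKM in MYC AP and listed at 0 in MYC VP. Ly6d was at 321 FPKM in MYC DLP against 32.0 FPKM in MYC AP and 35.3 FPKM in MYC VP. Npy, Ear12, Epyc, Syt10, Aldh3a1 and Rps27rt complete the 10. With size factors Aldh3a1 was not above both WT lobes, and Rps27rt is a near-copy of Rps27, so that its reads are uncertain.

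Most other leading genes were not highest in MYC DLP. Pbsn was at 267 FPKM in MYC DLP, 3084 FPKM in MYC AP and 1.90 FPKM in MYC VP, a lobe ratio of -2.52. Itln1 was at 1.20 FPKM in MYC DLP, 4.90 FPKM in MYC AP and 0.42 FPKM in MYC VP, and Tcaf3 at 21.8 FPKM, 30.3 FPKM and 0.02 FPKM. A630095E13Rik was at 102 FPKM in MYC DLP against 185 FPKM in MYC AP, and Pcp4 at 12.8 FPKM against 17.3 FPKM. Mmp7 and Rnase1 instead had higher levels in MYC DLP than in WT DLP, at 651 FPKM and 731 FPKM. MYC AP came next at 535 FPKM and 441 FPKM, with log2 ratios of MYC DLP over MYC AP of 0.28 and 0.73. Of the 12 leading genes, 10 were at least 2-fold lower in MYC DLP than in WT DLP. Among all genes 3.65% were, but the 12 were chosen for a high value in WT DLP, so nothing is read from that count.

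**Figure D5:**
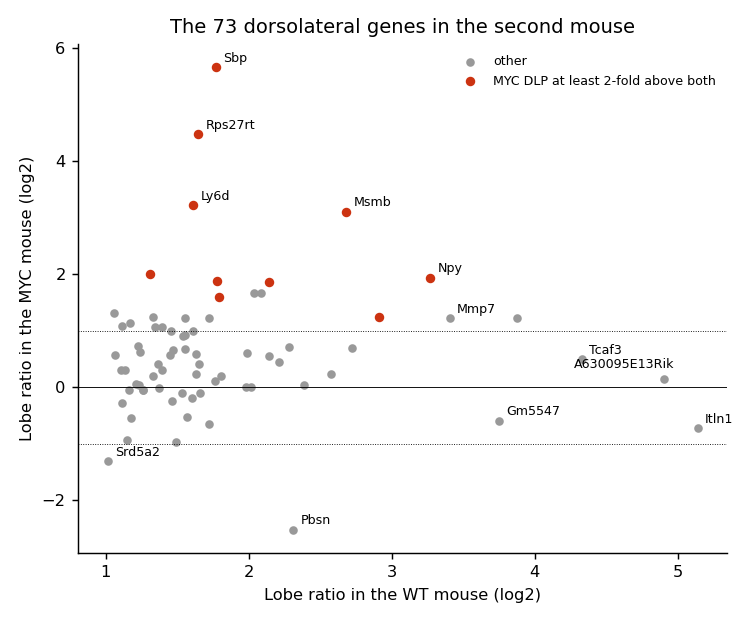
Lobe ratio (log2) of the 73 genes in the WT mouse (x axis), which chose them, and in the MYC mouse (y axis). Each point is 1 gene, red where MYC DLP was at least 2-fold above both other MYC lobes, and dotted lines mark 2-fold. The 10 red genes include Msmb, Sbp and Ly6d, while Pbsn lies lowest at -2.52.

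The place of DLP between the other lobes was also examined in the MYC mouse. MYC DLP lay strictly between MYC AP and MYC VP for 809 of the 1240 WT-midway genes (65.2%), against 56.8% of all genes. Among the other 987 genes with WT AP and VP at least 2-fold apart it did so for 588 (59.6%), a difference that was not tested. Abo was at 134 FPKM in MYC VP, 12.8 FPKM in MYC DLP and 2.46 FPKM in MYC AP, and C1rb at 259 FPKM in MYC AP, 17.2 FPKM in MYC DLP and 2.88 FPKM in MYC VP. Ivl was an exception, at 67.3 FPKM in MYC DLP, 28.7 FPKM in MYC AP and 12.4 FPKM in MYC VP, and so was Pigr, at 40.4 FPKM in MYC DLP, 24.4 FPKM in MYC VP and 8.51 FPKM in MYC AP.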

How the data were processed

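Bulk RNA-seq of 6 libraries was used, 1 per prostate lobe of 1 WT and 1 MYC mouse, with groups taken from the sample titles. Single-end reads were aligned by the authors with STAR, gene levels came from Cufflinks, and the authors deposited 1 table of FPKM per gene and library. The methods speak of read counts, but the deposited values are not whole and were treated as FPKM. The submitters' notes name the build mm10 and bcl2fastq 2.18.

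Values were used as deposited, on the log2(FPKM + 1) scale, which understates ratios of low genes. Genes averaging 1 FPKM or more across the WT libraries were kept and 2-fold counted as a call. With 1 library per group, no p-value, SD between replicates or count model was computed, and differences between libraries carry no measure of the spread between animals. Members and gene lists were chosen with earlier results of these data known. Named genes were the 12 highest and 8 lowest lobe ratios beyond both lobes, for genes averaging 10 FPKM or more (0 genes qualified for the low side), 4 midway genes on each side, genes the study names for lobes or cell types, and called or defining list members. Small RNA genes were left out of the first 2 rules. A few genes that the rule names are not reported here. Other genes named in the text were picked with their values in view.

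Of the table's symbols, 24344 matched RefSeq symbols of GRCm38.p6, or 24826 with synonyms. Reads per gene were estimated from FPKM, transcript length and the spacing of low values, where 29.4% to 40.9% of the values checked were whole reads within 3%. These estimates served for precision only. Alternatives were another pseudocount, filter, threshold, scaling, mean or comparison lobe. The code was tested on simulated libraries with changed genes before use. Python 3.11.15, numpy 2.4.6, pandas 2.3.3 and matplotlib 3.10.9 were used. B2m and Malat1, which the rule also names, were at 4736 and 168 FPKM in WT DLP.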

Additional observations from a re-analysis of the deposited data

Results flagged for a closer look

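For 4 of the genes named above the lobe ratio passed 2-fold in opposite directions in the WT and the MYC mouse, which is what singled them out. Each direction rests on 1 library per lobe, so the difference between the mice was not tested.

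Pbsn had a lobe ratio of 2.31 in the WT mouse and -2.52 in the MYC mouse, where AP kept 3084 FPKM and DLP had 267 FPKM. Srd5a2, which converts testosterone to dihydrotestosterone, had a ratio of 1.01 in the WT mouse and -1.31 in the MYC mouse, with 3.55 FPKM in MYC DLP and 17.0 FPKM in MYC AP. Its WT ratio did not reach 2-fold with size factors (0.85) or equal FPKM sums (0.88). Pigr had a ratio of -3.28 in the WT mouse and 1.25 in the MYC mouse, and its VP level was 349 FPKM in the WT and 24.4 FPKM in the MYC mouse. Ivl had a ratio of -1.17 in the WT mouse and 1.66 in the MYC mouse, with 67.3 FPKM in MYC DLP against 17.2 FPKM in WT DLP. DLP was midway between AP and VP for Pigr and Ivl in the WT mouse, so the WT sign turns with the comparison, to 2.52 for Pigr against AP alone, and for Ivl to 2.71 against VP alone and 0.29 with the geometric mean. Hematopoietic markers summed to 1717 FPKM in MYC DLP and 449 FPKM in WT DLP, and basal markers to 2171 and 1597 FPKM. Their part in these differences was not tested.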

How the results depend on the processing

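No paired analysis was possible because the WT comparison rests on 1 library per lobe of 1 mouse. A fit over both mice, which would take genotype differences as its error, was not made. Counts below stand in the order higher by the ratio, lower by the ratio, above both, below both, midway and above both in both mice. A pseudocount of 0.1 gave 290 higher genes, 146 above both, 19 below both and 31 in both mice. A minimum mean of 10 FPKM, which tests fewer genes, gave 73, 84, 34, 6, 567 and 7. A 4-fold threshold gave 37, 49, 28, 5, 212 and 5. Without small RNA genes 3 were below both and 10 above both in both mice. Without genes listed at 0 in any WT library, an alternative added after seeing the data, these were 5 and 8. A position of 0.4 to 0.6 left 534 midway genes. The geometric mean of AP and VP gave 90 lower genes, AP alone 488 higher, and VP alone 783 higher and 321 lower.

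Scaling by size factors moved the median ratio of all genes from 0.10 to -0.05, so small differences have no fixed sign, and 71 of the 91 genes above both lobes were kept. Cldn10 changed sign with size factors (-0.13) and equal sums (-0.02). All 91 were also above both with a pseudocount of 0.1.

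The ratio reversed where DLP was intermediate. With the geometric mean, Abo was at 1.43, C1rb at 0.57, Glb1l3 at 0.33 and Ivl at 0.29. Against AP alone, Abo was at 5.22, Pigr at 2.52, Atp2c2 at 2.05, 9530002B09Rik at 1.84, Cyp2b10 at 1.50 and Spink1 at 0.26. Against VP alone, Glb1l3 was at 4.07, C1rb at 3.36, Ivl at 2.71 and C1s2 at 1.68. These follow from the choice of comparison lobe. At 2-fold, the lobe ratios of the 12 leading genes kept their call under every alternative for which they were computed. With the 4-fold threshold Pbsn, Pcp4, Tcaf2, Msmb, Defb1, Enpp2 and Rnase1 were not above both lobes. Their log2 ratios over the next lobe ran from 1.27 for Rnase1 to 1.96 for Pbsn. The AP library, with 25.3 M reads, limits the precision of low genes most.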
